A study of Homo sapiens with 18 samples.

Results

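The SLC25 genes encode the mitochondrial carriers, the largest family of proteins that move solutes across the inner mitochondrial membrane. Their RNA was followed in HEK293T cells whose NRF1 gene was edited at a splice site of exon 7. Members were all genes of the deposited table with a symbol made of SLC25A and a number, which gave 48 of 58825 genes, and 47 of them are described. SLC25A6 lies in the pseudoautosomal region and stood on 2 lines with identical values, for the X and the Y copy, so that the family took 49 lines. Both lines were added. In 8 of 18 libraries each line ended in 0.5, as an equal split of reads between 2 copies gives. With the lines kept apart the log2 fold change of SLC25A6 was 0.42 too, which follows from identical lines and is no separate check. The rule used no measured value, but the family was picked for description with earlier results of these data known. Of these 47 members, 42 had enough counts to be tested. SLC25A2, SLC25A18, SLC25A31, SLC25A47 and SLC25A52 did not.

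SLC25 carriers share a fold of membrane-spanning helices around a central substrate site, and most exchange a cytosolic solute for a matrix solute. Nuclear genes encode them, and the proteins are made in the cytosol, pass the outer membrane through the TOM complex and are inserted by the TIM22 complex. They move ADP and ATP, phosphate, citric acid cycle intermediates, amino acids, nucleotides, cofactors and iron between the compartments. The edited gene encodes nuclear respiratory factor 1, which recognises a GC-rich element and is known for its sites in promoters of many mitochondrial protein genes.

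HEK293T is a human embryonic kidney cell line. Its cells received a plasmid with a base editor, which is a deaminase fused to a Cas9 nickase and converts bases within the target of its guide RNA. Polyadenylated RNA was sequenced in bulk from 18 libraries, 3 in each of 6 groups. There were 3 editors. ABE8e, an adenine deaminase, was placed on the SaCas9 nickase in SaABE and on the SpCas9 nickase in SpABE, and evoCDA1, a cytosine deaminase, was placed on the SpCas9 nickase in SpCBE. For each editor 3 libraries had an NRF1 guide, aimed at an exon 7 splice site, and 3 had an intergenic control guide, so that every group carried an active editor. The study used separate plasmids for each editor, and its editors were aimed at the splice donor or the acceptor. Guide and edited site can therefore change with the editor, for NRF1 and intergenic guides alike. Each transfection used 750000 cells, puromycin was applied for 48 hours, and cells were harvested for RNA at 72 hours. The labels do not state whether libraries of a group are separate cultures, and the p-values then cover only the spread between these libraries, which can be technical.

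Libraries held 28101094 to 40687447 estimated counts, of which SLC25 members took 0.294% to 0.357% and the mitochondrial genome 0.94% to 1.19%. Levels are given as CPM, counts brought to a common library size after TMM scaling. NRF1 itself lay between 35.7 and 43.8 CPM in the 9 NRF1-guide libraries and between 24.4 and 33.1 CPM in the 9 intergenic-guide libraries, a count that includes transcripts with and without exon 7 and does not check its skipping. The summed level of 6 embryonic kidney markers ranged from 62.2 to 75.3 CPM with NRF1 guides and from 61.3 to 83.1 CPM with intergenic guides, none of the 5 tested passed the test over all editors, and PAX8 was too low to be tested. Summed blood cell markers lay at 4.53 to 6.64 CPM with NRF1 guides and 4.62 to 6.17 CPM with intergenic guides, and fibroblast markers at 15.9 to 22.5 CPM with NRF1 guides and 19.7 to 24.1 CPM with intergenic guides. In each of these lists 4 of 8 genes were too low to be tested, PTPRC, SPI1, CD3E and HBB of the first and COL1A2, DCN, THY1 and FAP of the second. Of the 4 tested in each, CD14 rose and COL1A1 fell. Epithelial markers summed to 93.4 to 112 CPM with NRF1 guides and 94.3 to 107 CPM with intergenic guides, and CDH1 and KRT8 fell among 5 tested. The part of these markers in the results below was not tested. In bulk RNA, fewer cells of a kind and less RNA per cell cannot be told apart.

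Promoter sequences of 40 members were found in the RefSeq promoter table (GRCh38.p14), each running from 250 bases before to 50 bases after the gene start. They were searched on both strands for the NRF1 motif, spelled GCGCA, then C or T, then GCGC, and for a shorter core, GCGCANGCG, where N is any base. The core lies inside the full motif, so each full match is also a core match. The full motif was in 0 of 40 members (0.0%), against 912 of 27305 genes with a window (3.34%). The core was in 5 of 40 members (12.5%), against 2464 of 27305 genes (9.02%). These matches are shown because NRF1 is the edited gene, with the core in capitals as it reads 5′ to 3′ along the gene's strand.
SLC25A11, chr17:4940047-4940082, minus strand: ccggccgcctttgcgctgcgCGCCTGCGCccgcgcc
SLC25A3, chr12:98593453-98593501, plus strand: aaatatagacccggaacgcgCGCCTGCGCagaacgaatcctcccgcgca
SLC25A51, chr9:37904113-37904141, minus strand: tcggggtcggtcacagtctgCGCCTGCGC
SLC25A52, chr18:31760881-31760925, minus strand: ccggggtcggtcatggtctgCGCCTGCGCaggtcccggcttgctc
SLC25A31, chr4:127730258-127730306, plus strand: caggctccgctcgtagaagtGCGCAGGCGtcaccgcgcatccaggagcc
SLC25A31, chr4:127730351-127730399, plus strand: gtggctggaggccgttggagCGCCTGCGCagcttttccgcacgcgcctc
The core began at position -16 in SLC25A11, -213 in SLC25A3, 6 in SLC25A51, -25 in SLC25A52 and -122 and -29 in SLC25A31, with the first transcribed base as 0. SLC25A51 and SLC25A52 are close paralogs, and the stretches shown share most of their letters up to the end of the core. Their full windows were not compared. SLC25A2, SLC25A16, SLC25A30, SLC25A32, SLC25A35, SLC25A37 and SLC25A41 had no window. Among the members with a core, SLC25A11 and SLC25A3 rose with NRF1 guides, SLC25A51 fell, and the other two were not tested. A match describes these letters and is not a site shown to be bound.

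With NRF1 guides, more SLC25 genes rose than fell, and the changes were small. Over all 3 editors, 21 of 42 tested members passed the test (50%), at an edgeR adjusted p under 0.05, against 39.4% of all 17729 genes tested. Of these, 14 rose (33.3%, against 20.6% of all genes) and 7 fell (16.7%, against 18.8%). The median log2 fold change, NRF1 guide over intergenic guide, was 0.06 over the members and 0.01 over all genes tested. Of the 42 members, 36 changed by less than 0.25 on the log2 scale in either direction. With an absolute log2 fold change over 0.5 as well, 0 members passed by edgeR and 0 by DESeq2, against 5.5% of all genes by edgeR, while 24 had an unadjusted edgeR p under 0.05. The share of all genes under 0.25 was not counted. Nor was the share with an unadjusted p under 0.05, here or in single editors. The 14 that rose were SLC25A1, A3, A4, A5, A6, A11, A15, A16, A17, A20, A28, A32, A33 and A42, and the 7 that fell were SLC25A10, A12, A24, A29, A37, A45 and A51. All but SLC25A37 had the same sign in each editor, which was not counted over all genes.

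Editor by editor, 16 members passed in SaABE (38.1%, against 32.4% of all genes), 12 higher (16.9% of all genes) and 4 lower (15.5%). In SpABE 17 passed (40.5%, against 32.6%), 12 higher (15.3% of all genes) and 5 lower (17.3%). In SpCBE 12 passed (28.6%, against 23.1%), 9 higher (11.0% of all genes) and 3 lower (12.0%). Past the fold threshold too, edgeR and DESeq2 gave 0 members in SaABE (6.06% of all genes) and 0 in SpABE (6.41%), where 18 and 21 had an unadjusted edgeR p under 0.05. SLC25A6 was the 1 such member in SpCBE, where 0.829% of all genes rose past it. That share counts rises only, while the SaABE and SpABE shares count both directions. The medians were 0.05, 0.06 and 0.08, with 0.02, 0.00 and 0.01 over all genes tested. SLC25A3, A4, A5, A6, A11 and A16 rose and SLC25A12 fell in the pooled comparison and in every editor. How many of all genes passed in every editor was not counted, so these members have no background share beside them. In SLC25A6, SLC25A11 and SLC25A16 all 9 NRF1-guide libraries lay above all 9 intergenic-guide libraries, 3 of 42 members, where 1.43% of all genes did so. SLC25A12 was the 1 member with all 9 below, where 5.26% of all genes did so. SLC25A17, SLC25A28 and SLC25A42 passed over all editors but in no editor alone.

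**Figure D1:**
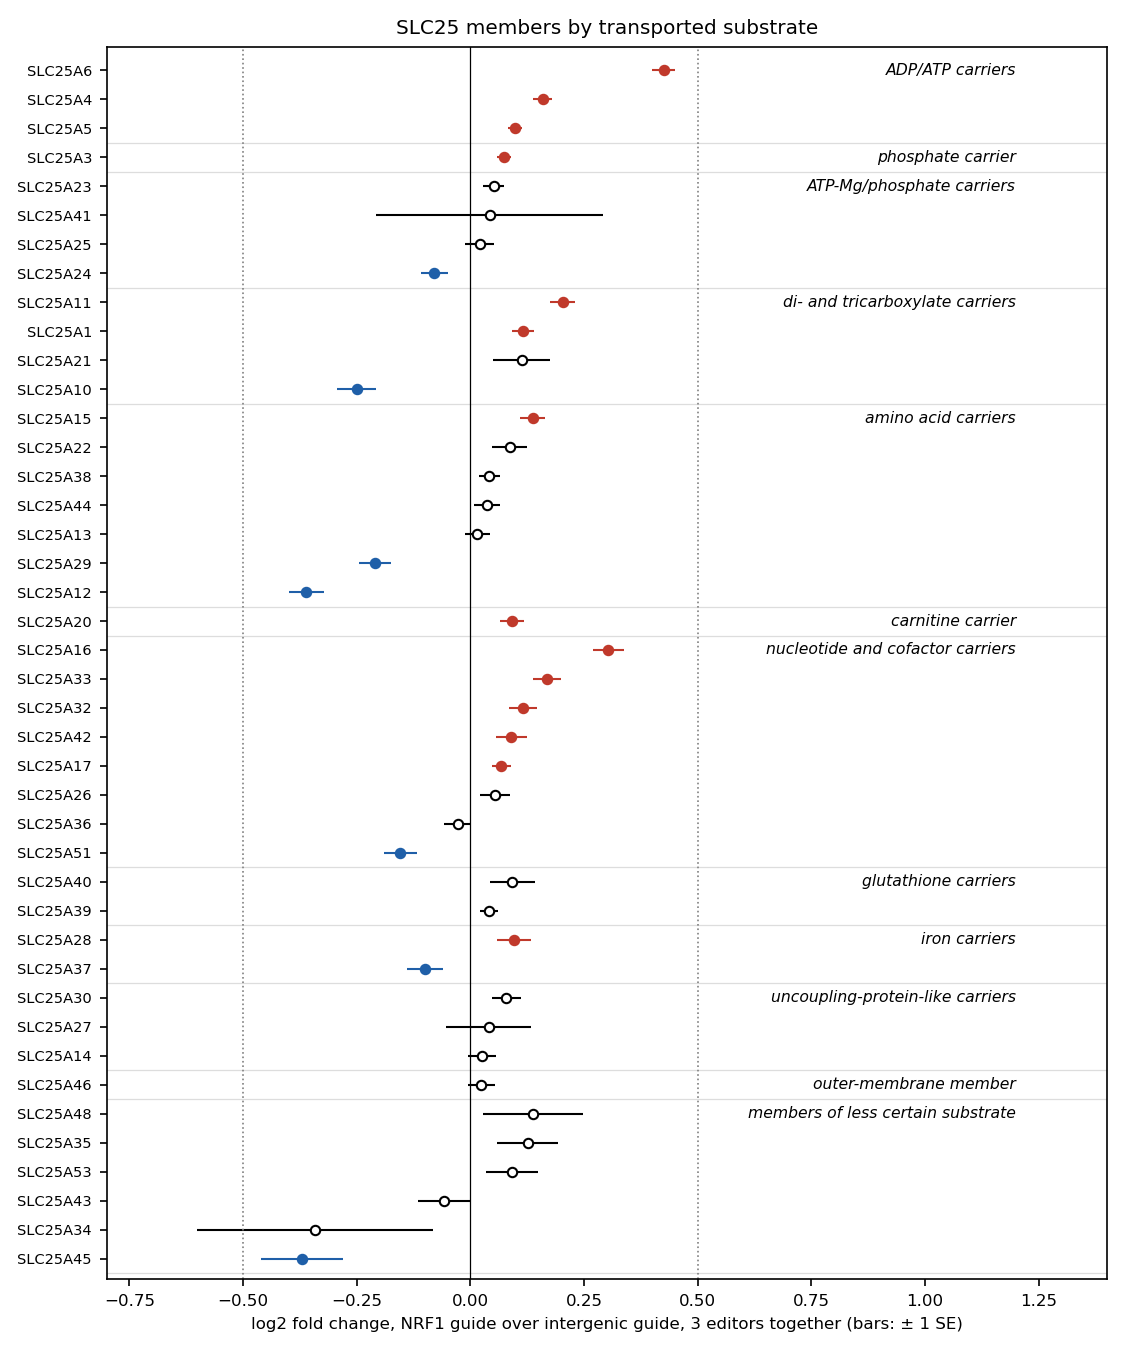
Log2 fold change (x axis, NRF1 guide over intergenic guide, all 3 editors, bars ± 1 SE) of 42 tested SLC25 members, grouped by substrate; filled red points rose, filled blue points fell, open points did not pass the test, and dotted lines mark 0.5 in each direction. SLC25A6 stands farthest to the right at 0.42, and SLC25A45 and SLC25A12 farthest to the left among members that passed, at -0.37 and -0.36.

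The summed level of the 47 members was 3407 ± 50 CPM with NRF1 guides and 3110 ± 62.5 CPM with intergenic guides (SD, n = 9 each), with ranges of 3334 to 3470 with NRF1 guides and 3021 to 3222 with intergenic guides. SLC25A6, an ADP/ATP carrier, made up much of that gap. Without it the sum was 2684 ± 45.0 CPM (2633 to 2765) with NRF1 guides and 2569 ± 34.8 CPM (2516 to 2621) with intergenic guides, and the ranges still did not overlap. SLC25A5, SLC25A6 and SLC25A3 together held 53.8% ± 1.04 of that sum with NRF1 guides and 50.9% ± 1.4 with intergenic guides (SD, n = 9 each).

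Levels of different members were compared per kilobase of exon, on the GENCODE 44 gene models. With NRF1 guides SLC25A6 stood at 466 ± 17.8 and SLC25A5 at 435 ± 11.4 CPM per kilobase (SD, n = 9), with a wide step down to SLC25A3 at 48.9 ± 1.79, SLC25A11 at 44.4 ± 2.78, SLC25A39, a glutathione importer, at 42.1 ± 1.49 and SLC25A1 at 35.6 ± 3.38. With intergenic guides SLC25A5, at 406 ± 7.66 CPM per kilobase, was above SLC25A6, at 348 ± 32.4, and SLC25A39 was just above SLC25A11, at 38.5 ± 1.70. The order at the top with NRF1 guides depends on the length used, since by 1 canonical transcript SLC25A6 had 498 and SLC25A5 had 517 CPM per kilobase. That length also puts SLC25A39 above SLC25A3, at 94.0 against 72.7 CPM per kilobase with NRF1 guides. SLC25A34 and SLC25A41 had the fewest CPM of the tested members. SLC25A34 lay at 0.068 to 0.296 CPM with NRF1 guides and 0.0988 to 0.355 CPM with intergenic guides, and SLC25A41 at 0.225 to 0.621 CPM with NRF1 guides and 0.165 to 0.55 CPM with intergenic guides. Of the untested members, SLC25A2, an ornithine carrier, had 2 counts over all 18 libraries and was at 0 in 17, where a count of 0 allows up to 0.0737 to 0.107 CPM (3 counts, counting error only). SLC25A31, the testis ADP/ATP carrier, reached at most 0.057 CPM, and SLC25A18, SLC25A47 and SLC25A52 stayed under 0.3 CPM.

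**Figure D2:**
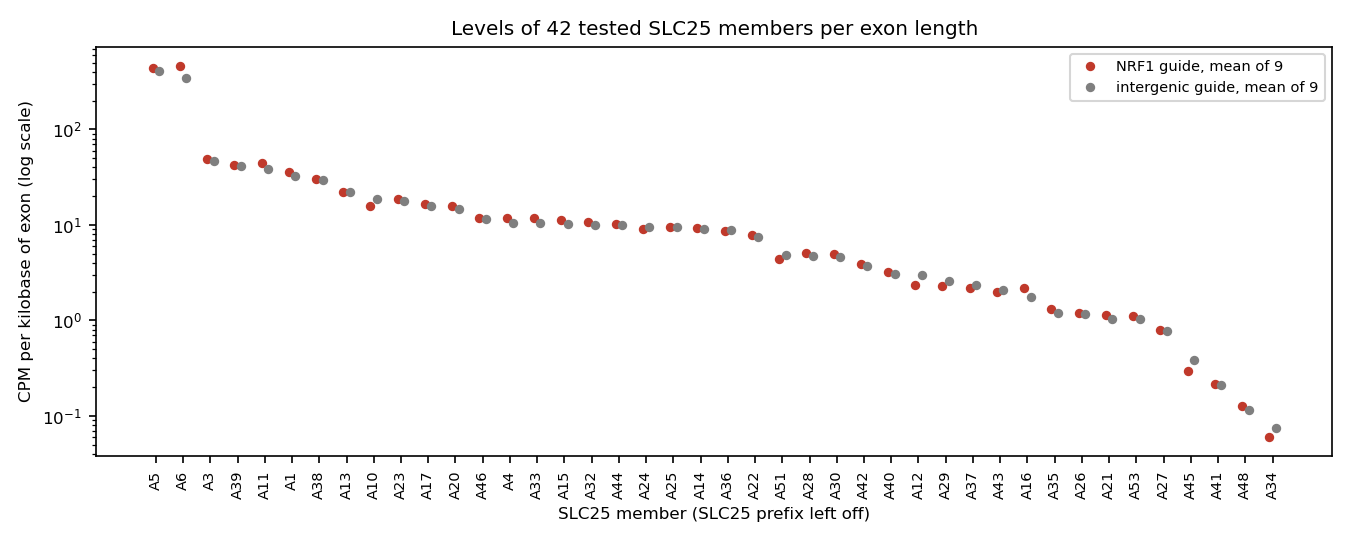
CPM per kilobase of exon (y axis, log scale) of 42 tested members (x axis, ordered by the intergenic-guide level); red points are means of 9 NRF1-guide libraries and grey points means of 9 intergenic-guide libraries. SLC25A5 and SLC25A6 stand above all others, at 435 and 466 with NRF1 guides and 406 and 348 with intergenic guides.

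The ADP/ATP carriers bring ADP into the matrix and send ATP out, and all 3 tested members of this group rose in every editor. Taken singly, SaABE, SpABE and SpCBE had 16.9%, 15.3% and 11.0% of all genes higher. SLC25A6, the ubiquitous form also called ANT3, had the largest rise in the family. Its gene (ENSG00000169100) lies on the minus strand at chrX:1386152-1392113 in GENCODE 44 on hg38. Its level in SaABE was 690.1, 729 and 710.4 CPM with the NRF1 guide, against 542, 505 and 533 CPM with the intergenic guide. In SpABE it was 742, 779.6 and 740 CPM with the NRF1 guide and 579.9, 599 and 623 CPM with the intergenic guide. In SpCBE it was 711, 702 and 705 CPM with the NRF1 guide and 476, 504 and 499.7 CPM with the intergenic guide. Every NRF1-guide library was above every intergenic-guide library, across editors as well as within them. SpABE libraries were the highest with either guide, and SpCBE had the lowest mean with either guide, at 706 CPM with the NRF1 guide and 493 CPM with the intergenic guide. The log2 fold change was 0.42 (SE 0.025, edgeR adjusted p = 9.12e-13) over all editors, 0.43 in SaABE, 0.33 in SpABE and 0.52 in SpCBE. In SpCBE it was also past 0.5, and at 0.498 it was just short of that without SpCBE intergenic replicate 1. The 100 bases before the SLC25A6 start, with each CG pair in capitals, are shown because this member moved most.
SLC25A6, chrX:1392114-1392213, minus strand: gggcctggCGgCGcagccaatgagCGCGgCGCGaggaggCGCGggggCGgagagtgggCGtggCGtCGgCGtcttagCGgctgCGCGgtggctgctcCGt
This stretch is 78.0% G or C with 17 CG pairs and holds neither the NRF1 motif nor its core.

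SLC25A5, the form of dividing cells called ANT2, rose by less. It had 649 CPM at the lowest, 682 at the median and 698 at the highest of 9 NRF1-guide libraries, against 617, 628 and 651 CPM with intergenic guides. The ranges overlapped slightly across editors, and within each editor the NRF1-guide libraries were higher. The log2 fold change was 0.10 (SE 0.015, edgeR adjusted p = 1.48e-05). SLC25A4, the heart and muscle form ANT1, had 53.8, 55.7 and 61.3 CPM (lowest, median, highest) with NRF1 guides and 48.0, 50.2 and 55.3 CPM with intergenic guides, a log2 fold change of 0.16 (SE 0.021, edgeR adjusted p = 1.67e-06). In SaABE the SLC25A5 rise (edgeR adjusted p = 0.0208) no longer passed without NRF1 replicate 1 (0.0538), NRF1 replicate 2 (0.0657) or intergenic replicate 2 (0.0637).

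The balance of the 2 abundant forms differed between guides. The ratio of SLC25A6 to SLC25A5 CPM was 1.07 ± 0.0414 with NRF1 guides and 0.855 ± 0.0735 with intergenic guides (SD, n = 9 each). All 9 NRF1-guide libraries were at or over 1.01 and all 9 intergenic-guide libraries at or under 0.958. Within each editor the exact two-sided permutation p was 0.1, the smallest that 3 against 3 libraries allow. Per kilobase, SLC25A6 was 51.0% ± 0.951 of all ADP/ATP carriers, the untested SLC25A31 included, with NRF1 guides and 45.4% ± 2.13 with intergenic guides. SLC25A4 was 1.30% ± 0.0821 with NRF1 guides and 1.39% ± 0.116 with intergenic guides (SD, n = 9 each). SLC25A5 and SLC25A6 are similar in sequence and have processed pseudogenes, and how reads with several matches were counted is not given in the sources used here.

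**Figure D3:**
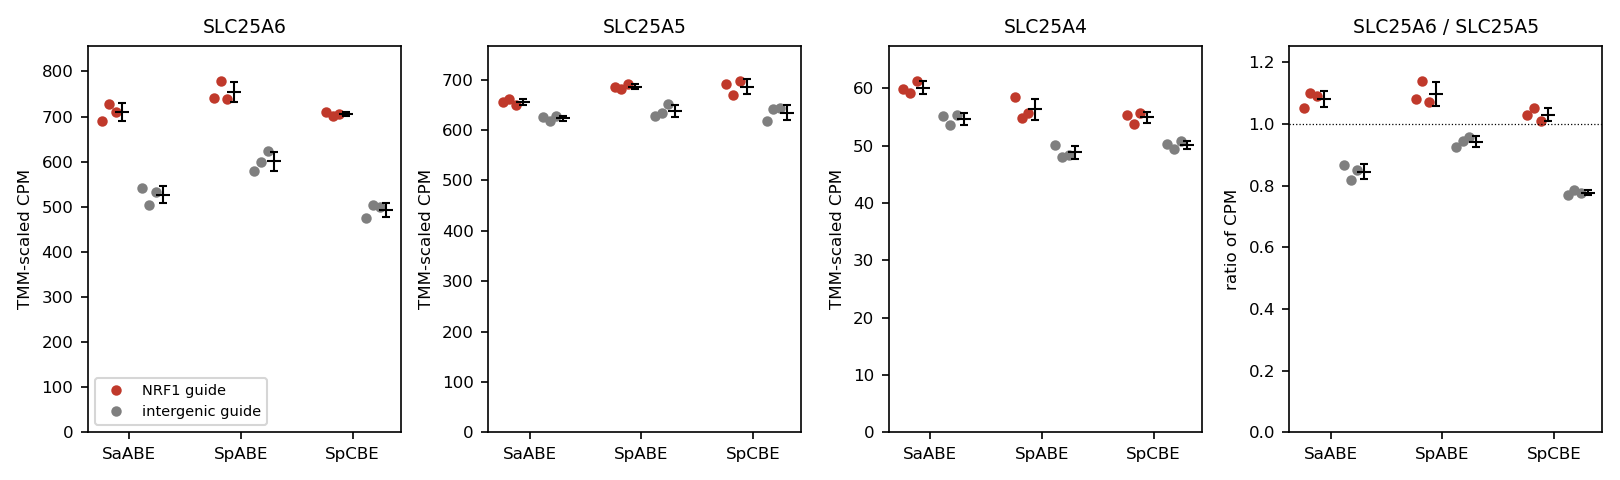
CPM (y axes) of SLC25A6, SLC25A5 and SLC25A4 in each library, and the ratio of SLC25A6 to SLC25A5 at the right, by editor (x axis); red points are NRF1-guide and grey points intergenic-guide libraries, and black marks are means ± SD (n = 3). The ratio lies over the dotted line at 1 in all 9 NRF1-guide libraries and under it in all 9 intergenic-guide libraries.

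The phosphate carrier SLC25A3, which supplies phosphate for ATP synthesis and also imports copper, had 418, 434 and 459 CPM (lowest, median, highest) with NRF1 guides and 396, 408 and 438 CPM with intergenic guides. The ranges overlapped across editors, and SpABE was the highest editor with either guide. It rose by 0.07 on the log2 scale (SE 0.015, edgeR adjusted p = 0.000327). Within editors the call was weak. In SaABE (edgeR adjusted p = 0.0402) it was lost without 13 of the 18 libraries left out in turn, including each SaABE library, with an adjusted p of up to 0.119. In SpABE (0.0317) it was lost without NRF1 replicate 1 (0.125), NRF1 replicate 2 (0.10) or intergenic replicate 1 (0.123), and with the replicate number as a block (0.0769).

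Of the ATP-Mg/phosphate carriers, calcium-regulated proteins that change the adenine nucleotide pool of the matrix, 0 of 4 rose and 1 fell over all editors (20.6% and 18.8% of all genes). SLC25A24 had 53.3, 59.7 and 67.8 CPM (lowest, median, highest) with NRF1 guides and 54.3, 64.8 and 68.6 CPM with intergenic guides. The ranges overlapped almost fully. Its log2 fold change of -0.08 (SE 0.030, edgeR adjusted p = 0.0376) no longer passed without 10 of the 18 libraries left out in turn (adjusted p up to 0.0887), of which 6 were the SpABE libraries, nor with the replicate block (0.0822) or RLE scaling (0.0538). Its fall in SpABE (-0.16, 0.00929) was lost without NRF1 replicate 3 (0.0532) or intergenic replicate 2 (0.0676). SLC25A23 had a pooled log2 fold change of 0.05 (edgeR adjusted p = 0.0904) and passed in SpCBE alone, at 0.14 (0.00288). SLC25A25, whose effect differed between editors, did not pass over all of them, and neither did SLC25A41.

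Carriers of di- and tricarboxylates split in direction. SLC25A11 exchanges malate for 2-oxoglutarate and is part of the malate-aspartate shuttle, which brings cytosolic reducing equivalents into mitochondria. It had 107, 105 and 101 CPM with the NRF1 guide in SaABE, against 98.5, 89.6 and 96.1 CPM with the intergenic guide. SpABE libraries had 103, 107 and 111 CPM with the NRF1 guide and 87.7, 93.9 and 100.1 CPM with the intergenic guide, and SpCBE libraries 119, 117 and 118 CPM with the NRF1 guide and 94.5, 97.5 and 98.4 CPM with the intergenic guide. No intergenic-guide library of any editor reached the lowest NRF1-guide library. SLC25A11 rose by 0.20 on the log2 scale (SE 0.028, edgeR adjusted p = 2.16e-06) over all editors and by 0.13, 0.19 and 0.29 in SaABE, SpABE and SpCBE. In SaABE the call (edgeR adjusted p = 0.0159) was lost without NRF1 replicate 1 (0.077) or intergenic replicate 2 (0.103).

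SLC25A10, the dicarboxylate carrier, exchanges malate or succinate for phosphate, and it fell. In SaABE it had 38.4, 43.8 and 40.1 CPM with the NRF1 guide, against 51.3, 44.7 and 48.6 CPM with the intergenic guide. SpABE libraries had 35.5, 36.1 and 36.0 CPM with the NRF1 guide, against 45.2, 48.3 and 51.2 CPM with the intergenic guide. SpCBE libraries had 46.3, 47.9 and 44.4 CPM with the NRF1 guide, against 47.0, 50.2 and 50.1 CPM with the intergenic guide. The guides were apart in SaABE and SpABE and overlapped in SpCBE. The change was -0.25 on the log2 scale (SE 0.043, edgeR adjusted p = 4.48e-05) over all editors, -0.24 in SaABE, -0.43 in SpABE and -0.09 in SpCBE, where it did not pass (edgeR adjusted p = 0.25). Set against SLC25A11, the ratio of SLC25A10 to SLC25A11 CPM was 0.373 ± 0.0331 with NRF1 guides and 0.510 ± 0.0081 with intergenic guides (SD, n = 9 each). Intergenic-guide ratios stayed between 0.497 and 0.521 in all editors, and no NRF1-guide ratio was over 0.418. The exact two-sided permutation p was 0.1 in each editor, the smallest possible.

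SLC25A1, the citrate carrier that exports citrate for fatty acid synthesis, had 60.5, 75.1 and 77.2 CPM (lowest, median, highest) with NRF1 guides and 55.1, 68.5 and 72.8 CPM with intergenic guides. SpABE libraries were low with either guide. Guides were apart in SpCBE and overlapped within SaABE and within SpABE. The rise was 0.12 on the log2 scale (SE 0.024, edgeR adjusted p = 0.000403), and in single editors the SpCBE rise passed (0.15, edgeR adjusted p = 0.00593). In SpABE it did not (0.10, 0.0521), but it passed there with RLE scaling (0.0302), DESeq2 (0.0304) and the stricter filter of at least 1 CPM in at least 9 libraries (0.0385), and when any 1 of 10 of the 18 libraries was left out. In SaABE (0.10, 0.0663) it passed without NRF1 replicate 1 (0.0346), intergenic replicate 1 (0.0217) or SpABE intergenic replicate 1 (0.0471). SLC25A21, a carrier of oxodicarboxylates, had 4.38 to 6.25 CPM with NRF1 guides and 3.84 to 5.81 CPM with intergenic guides, a log2 fold change of 0.11 that did not pass (SE 0.063, edgeR adjusted p = 0.162).

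Among amino acid carriers, 1 of 7 tested rose and 2 fell, where 20.6% of all genes rose and 18.8% fell. SLC25A12, or aralar, and SLC25A13, or citrin, are paralogs that export aspartate in exchange for glutamate under control of cytosolic calcium, and with SLC25A11 they make up the carriers of the malate-aspartate shuttle. SLC25A12 had 13.2, 12.3 and 13.3 CPM with the NRF1 guide in SaABE, against 17.2, 17.5 and 17.8 CPM with the intergenic guide. In SpABE it had 14.9, 15.5 and 16.0 CPM with the NRF1 guide and 21.4, 21.2 and 18.9 CPM with the intergenic guide. In SpCBE it had 14.4, 14.1 and 14.9 CPM with the NRF1 guide and 17.6, 16.3 and 17.6 CPM with the intergenic guide. Its highest NRF1-guide library, at 16.0 CPM, was below its lowest intergenic-guide library, at 16.3 CPM. Its log2 fold change was -0.36 (SE 0.038, edgeR adjusted p = 3.21e-08) over all editors and -0.43, -0.41 and -0.24 in SaABE, SpABE and SpCBE. No library left out ended the call in any editor. The 100 bases before its start are shown, with CG pairs in capitals, because SLC25A12 was the clearest fall.
SLC25A12, chr2:171894245-171894344, minus strand: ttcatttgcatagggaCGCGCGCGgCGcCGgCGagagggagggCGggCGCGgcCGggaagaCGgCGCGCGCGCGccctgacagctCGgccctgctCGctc
The stretch is 77.0% G or C with 19 CG pairs, close to the 78.0% and 17 of SLC25A6, and its window also holds neither form of the motif.

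SLC25A13 did not pass in any comparison of guides. It had 73.2, 77.2 and 98.4 CPM (lowest, median, highest) with NRF1 guides and 67.2, 78.4 and 93.6 CPM with intergenic guides, and the highest values were those of SpCBE with either guide. Its log2 fold change was 0.01 (SE 0.027, edgeR adjusted p = 0.709), with 0.04 in SaABE, -0.08 in SpABE and 0.08 in SpCBE. The ratio of SLC25A12 to SLC25A13 CPM was 0.176 ± 0.0281 with NRF1 guides and 0.229 ± 0.0369 with intergenic guides (SD, n = 9 each). Editors differed in this ratio, so the 9 values of each guide overlapped, but within every editor the NRF1-guide libraries were lower (exact two-sided permutation p = 0.1 in each, the smallest possible).

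**Figure D4:**
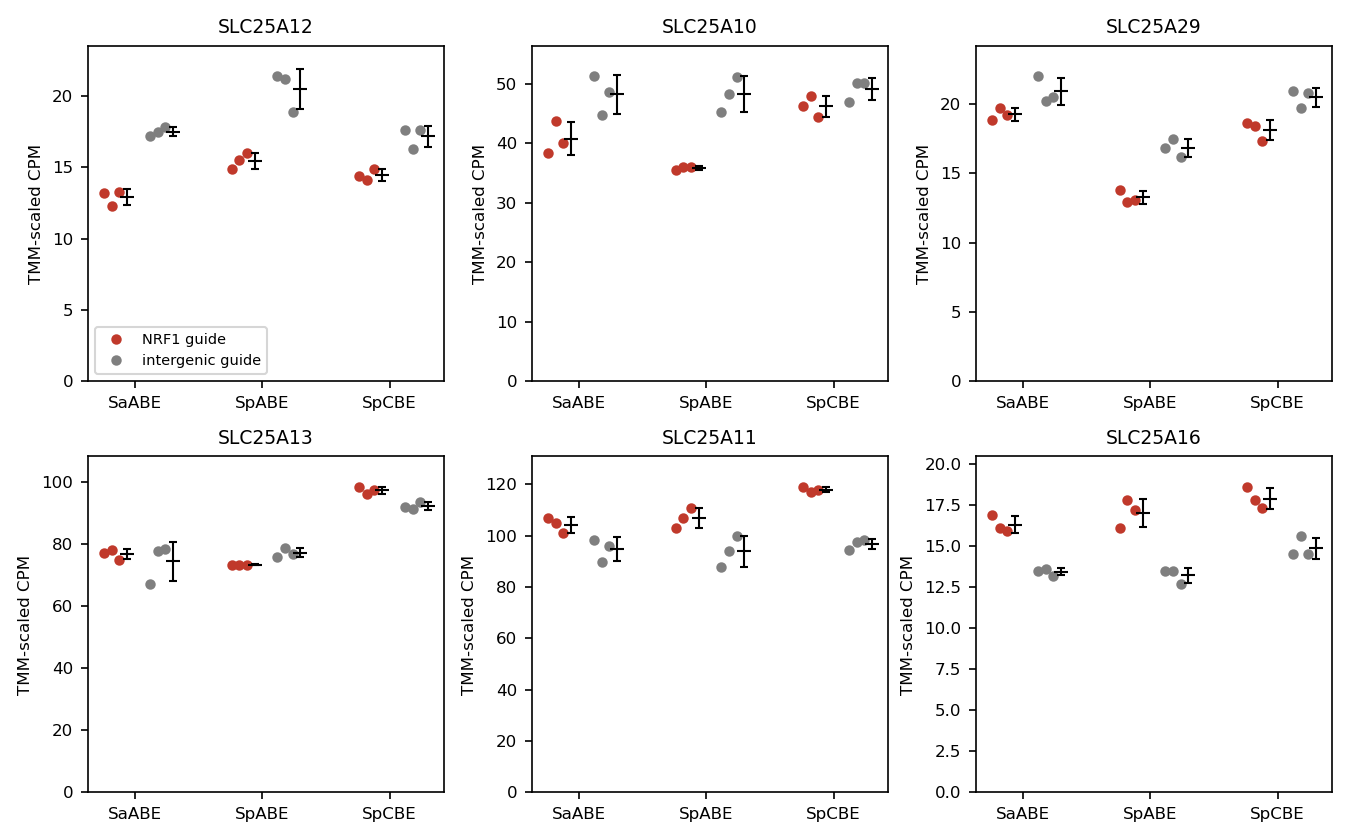
CPM (y axes) of 6 members in each library by editor (x axis); red points are NRF1-guide and grey points intergenic-guide libraries, and black marks are means ± SD (n = 3). SLC25A12 is lower and SLC25A11 and SLC25A16 are higher with the NRF1 guide in every editor, SLC25A10 overlaps in SpCBE, and SLC25A13 shows no steady direction.

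SLC25A29, a carrier of basic amino acids, had 18.8, 19.7 and 19.2 CPM with the NRF1 guide in SaABE, against 22.0, 20.2 and 20.5 CPM with the intergenic guide. With SpABE these were 13.8, 12.9 and 13.1 CPM with the NRF1 guide and 16.8, 17.5 and 16.2 CPM with the intergenic guide. With SpCBE they were 18.6, 18.4 and 17.3 CPM with the NRF1 guide and 20.9, 19.7 and 20.8 CPM with the intergenic guide. Guides did not overlap within any editor, and SpABE was the lowest editor with either guide. Pooled over editors it changed by -0.21 on the log2 scale (SE 0.036, edgeR adjusted p = 5.42e-05). It was -0.34 in SpABE and -0.18 in SpCBE, and in SaABE -0.12 did not pass (edgeR adjusted p = 0.0877). The SpCBE call (0.0151) was lost without NRF1 replicate 3 (0.111), intergenic replicate 1 (0.0755) or intergenic replicate 3 (0.0638).

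SLC25A15, the ornithine carrier of the urea cycle, had 42.4, 47.7 and 51.4 CPM (lowest, median, highest) with NRF1 guides and 40.4, 42.9 and 47.0 CPM with intergenic guides. It rose by 0.14 on the log2 scale (SE 0.028, edgeR adjusted p = 0.000295), most in SaABE at 0.18. In SpABE the call (0.0461) was lost without 8 of the 18 libraries left out in turn, 4 of them SpABE libraries, with an adjusted p of up to 0.265. SLC25A22, a glutamate carrier, passed in SpABE alone, where it had 32.6 to 35.8 CPM with the NRF1 guide and 28.9 to 30.3 CPM with the intergenic guide (log2 fold change 0.21, edgeR adjusted p = 0.00742), and over all editors it had 0.09 (0.0765). SLC25A38, a glycine carrier needed for haem synthesis, had 0.04 (edgeR adjusted p = 0.179) at levels of 73.7 to 83.4 CPM with NRF1 guides and 71.2 to 84.6 CPM with intergenic guides.

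Of the carriers of nucleotides and cofactors 5 of 8 tested rose and 1 fell, against 20.6% higher and 18.8% lower over all genes, and their median log2 fold change was 0.08. SLC25A16, linked to coenzyme A supply in the matrix, moved most among them. It had 16.9, 16.1 and 15.9 CPM with the NRF1 guide in SaABE, against 13.5, 13.6 and 13.2 CPM with the intergenic guide. SpABE libraries had 16.1, 17.8 and 17.2 CPM with the NRF1 guide and 13.5, 13.5 and 12.7 CPM with the intergenic guide. SpCBE libraries had 18.6, 17.8 and 17.3 CPM with the NRF1 guide and 14.5, 15.6 and 14.5 CPM with the intergenic guide. All 9 NRF1-guide libraries, from 15.9 CPM up, were above all 9 intergenic-guide libraries, up to 15.6 CPM. It rose by 0.30 on the log2 scale (SE 0.034, edgeR adjusted p = 9.89e-08) over all editors and by 0.28, 0.37 and 0.27 in SaABE, SpABE and SpCBE, and no library left out ended a call.

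SLC25A33, a pyrimidine nucleotide carrier, had 39.6, 44.6 and 53.9 CPM (lowest, median, highest) with NRF1 guides and 35.8, 39.4 and 45.9 CPM with intergenic guides, and rose by 0.17 (SE 0.031, edgeR adjusted p = 0.000115). In SpABE that call (0.0173) was lost without NRF1 replicate 1 (0.107) or 2 (0.05) or intergenic replicate 2 (0.0621). Its paralog SLC25A36 had a log2 fold change of -0.03 (SE 0.030, edgeR adjusted p = 0.494), with overlapping ranges of 85.4 to 93.8 CPM with NRF1 guides and 87.1 to 101 CPM with intergenic guides.

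SLC25A51, the mitochondrial NAD carrier, was the member of this group that fell. It had 14.4, 14.7 and 14.5 CPM with the NRF1 guide in SaABE, against 17.3, 17.2 and 16.9 CPM with the intergenic guide. With SpABE it had 14.5, 15.0 and 14.2 CPM with the NRF1 guide and 14.9, 14.7 and 16.6 CPM with the intergenic guide. With SpCBE it had 15.5, 14.2 and 16.0 CPM with the NRF1 guide and 16.4, 16.3 and 17.9 CPM with the intergenic guide. Guides overlapped in SpABE. Over all editors it fell, with a log2 fold change of -0.15 (SE 0.037, edgeR adjusted p = 0.00185), and in single editors it passed in SaABE only, at -0.24 (edgeR adjusted p = 0.00409). Reads of SLC25A51 and its near-identical paralog SLC25A52 may not have been told apart.

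The other cofactor carriers moved by small amounts. SLC25A32, which carries folate and FAD, rose by 0.12 (SE 0.031, edgeR adjusted p = 0.00459) at 34.9 to 42.8 CPM with NRF1 guides and 33.8 to 39.0 CPM with intergenic guides, and passed in SaABE (0.00551, and 0.0629 without SaABE NRF1 replicate 3) and, with the replicate block, in SpABE (0.0475, against 0.0633). SLC25A17, a peroxisomal carrier of cofactors, rose by 0.07 (edgeR adjusted p = 0.0138), and SLC25A42, a coenzyme A carrier, by 0.09 (0.0386). The SLC25A42 call was lost without 9 of the 18 libraries left out in turn (adjusted p up to 0.0824) and with the block (0.0731). SLC25A26, the S-adenosylmethionine carrier, had 0.06 and did not pass (edgeR adjusted p = 0.20).

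SLC25A20, the carnitine/acylcarnitine carrier of fatty acid oxidation, had 26.6, 29.1 and 33.6 CPM (lowest, median, highest) with NRF1 guides and 25.3, 27.0 and 31.9 CPM with intergenic guides. It rose by 0.09 (SE 0.027, edgeR adjusted p = 0.00862), with SpCBE the highest editor with either guide. In single editors it passed in SpABE (0.14, 0.02), a call lost without NRF1 replicate 1 (0.0822) or 2 (0.0868) or intergenic replicate 2 (0.0523) or 3 (0.0564). Neither glutathione carrier passed over all editors. SLC25A39 had 141 to 155 CPM with NRF1 guides and 138 to 149.5 CPM with intergenic guides (log2 fold change 0.04, SE 0.020, edgeR adjusted p = 0.11, DESeq2 adjusted p = 0.045). SLC25A40 had 0.09 (edgeR adjusted p = 0.157) and passed in SaABE at 0.24 (0.0165), but not without NRF1 replicate 3 (0.0571), intergenic replicate 1 (0.10) or intergenic replicate 3 (0.0684).

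The mitoferrins SLC25A28 and SLC25A37 import iron, and neither of their pooled calls was firm. SLC25A28 had 15.5, 16.7 and 19.8 CPM (lowest, median, highest) with NRF1 guides and 14.7, 16.2 and 17.6 CPM with intergenic guides. Its log2 fold change of 0.10 (SE 0.037, edgeR adjusted p = 0.0408) was lost without 10 of the 18 libraries left out in turn (adjusted p up to 0.0924) and with the block (0.0557). SLC25A37 had 15.4, 17.7 and 19.1 CPM with NRF1 guides and 15.4, 20.3 and 20.5 CPM with intergenic guides. Its log2 fold change of -0.10 (SE 0.039, edgeR adjusted p = 0.0431) was lost without 12 of the 18 libraries (adjusted p up to 0.102), with the block (0.0842), with DESeq2 (0.0581) and with RLE scaling (0.0551). The ratio of SLC25A37 to SLC25A28 CPM was 1.00 ± 0.0795 with NRF1 guides and 1.15 ± 0.164 with intergenic guides (SD, n = 9 each), apart in SpABE only (exact two-sided permutation p = 0.2, 0.1 and 0.9 in SaABE, SpABE and SpCBE).

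Relatives of the uncoupling proteins did not pass over all editors. SLC25A14 had 25.5 to 29.6 CPM with NRF1 guides and 23.6 to 29.2 CPM with intergenic guides, SLC25A30 had 30.8 to 36.8 CPM with NRF1 guides and 29.1 to 33.7 CPM with intergenic guides, and SLC25A27 had 2.22 to 3.14 CPM with NRF1 guides and 1.75 to 3.36 CPM with intergenic guides. In that order the pooled changes on the log2 scale were 0.03, 0.08 and 0.04, at an edgeR adjusted p of 0.55, 0.0508 and 0.777. SLC25A30 passed in SaABE (0.16, 0.0136), though not without NRF1 replicate 1 (0.108) or intergenic replicate 1 (0.0899).

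Of 6 tested members whose substrate is less certain, 1 fell over all editors, SLC25A45, where 18.8% of all genes fell. Its level was low, at 1.97, 1.87 and 2.66 CPM with the NRF1 guide in SaABE, against 2.99, 2.77 and 3.17 CPM with the intergenic guide. SpABE libraries had 1.94, 1.82 and 1.85 CPM with the NRF1 guide and 2.12, 2.17 and 3.17 CPM with the intergenic guide. SpCBE libraries had 3.11, 3.14 and 2.55 CPM with the NRF1 guide and 3.66, 3.78 and 3.17 CPM with the intergenic guide. The NRF1-guide libraries were lower within SaABE, SpABE and SpCBE, while SpABE intergenic replicate 3 stood well above the other 2 of its group. Over all editors SLC25A45 changed by -0.37 on the log2 scale (SE 0.090, edgeR adjusted p = 0.00198), the largest fall in the family and also its widest error among members that passed. In SaABE the call (-0.44, 0.0409) was lost without NRF1 replicate 1 (0.144) or 2 (0.152) or intergenic replicate 1 (0.0845) or 3 (0.121), with DESeq2 (0.0669) and with no filter on low counts (0.0535), and without NRF1 replicate 3 the fold change was -0.63 and past 0.5. In SpABE it did not pass (-0.41, 0.0564), passed with the block (0.0476), and was past 0.5 without intergenic replicate 1 (-0.51) or 2 (-0.50). Without intergenic replicate 3, the high library, it was -0.19 and did not pass. SLC25A35 passed in SpCBE alone, with 6.89, 6.66 and 6.86 CPM with the NRF1 guide, against 5.22, 5.98 and 4.84 CPM with the intergenic guide (log2 fold change 0.34, edgeR adjusted p = 0.0109, and 0.0587 without SpCBE intergenic replicate 3). SLC25A34, SLC25A43, SLC25A48 and SLC25A53 did not pass in any editor or over all.

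The effect of the NRF1 guide differed between editors for 6 members, tested as the difference of 2 log2 fold changes. Guides can differ between editors too, so these differences cannot be told apart from differences between guides. Between SaABE and SpABE 2 of 42 members passed (4.76%, against 11.7% of all genes), between SaABE and SpCBE 1 of 42 (2.38%, against 4.08%), and between SpABE and SpCBE 5 of 42 (11.9%, against 8.96%). SLC25A6 rose in every editor and its effect was smaller in SpABE than in SpCBE by -0.19 (edgeR adjusted p = 0.00758). SLC25A10 fell more in SpABE than in SpCBE, a difference of -0.34 (edgeR adjusted p = 0.00408). SLC25A37 differed by -0.27 in that pair (0.0276), a call lost when any of 6 libraries was left out, all SpABE or SpCBE (adjusted p up to 0.106), and with DESeq2 (0.0562). The controls of this pair differed too. For SpABE over SpCBE with intergenic guides, SLC25A37 had 0.395 (edgeR adjusted p = 3.13e-06), SLC25A6 0.284 (1.96e-07) and SLC25A25 -0.123 (0.00711). SLC25A10 (-0.026) and SLC25A44 (0.079) did not pass there. SLC25A37 means were 20.4 and 15.5 CPM with these guides, and 17.5 and 16.0 CPM with NRF1 guides.

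SLC25A44, a carrier of branched-chain amino acids, had 84.6, 84.0 and 86.3 CPM with the NRF1 guide in SpABE, against 78.3, 74.8 and 75.8 CPM with the intergenic guide. SpCBE libraries had 68.3, 66.2 and 70.1 CPM with the NRF1 guide, against 70.7, 71.1 and 75.1 CPM with the intergenic guide. It was thus higher in SpABE (0.15, edgeR adjusted p = 0.000753), lower without passing in SpCBE (-0.08, 0.0838), and the effects differed by 0.24 (edgeR adjusted p = 0.0021).

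SLC25A25, an ATP-Mg/phosphate carrier, had 63.2, 60.3 and 60.6 CPM with the NRF1 guide in SpABE, against 51.9, 56.2 and 55.9 CPM with the intergenic guide, and rose (0.17, edgeR adjusted p = 0.000521). SpCBE libraries had 55.2, 55.0 and 55.3 CPM with the NRF1 guide, against 58.9, 58.9 and 60.9 CPM with the intergenic guide, and SLC25A25 fell there (-0.11, 0.0219). SaABE libraries had 54.6, 52.4 and 55.1 CPM with the NRF1 guide, against 54.1, 53.4 and 54.3 CPM with the intergenic guide, and the effect did not pass (0.00, 0.966). SpABE and SpCBE effects differed by 0.28 (edgeR adjusted p = 0.000623), and SaABE and SpABE effects by -0.16 (0.0346). The call between SaABE and SpABE was lost with the replicate block (0.08) and without 7 of the 18 libraries, all SaABE or SpABE (adjusted p up to 0.0999). The SpCBE fall was lost without 5 of the 6 SpCBE libraries (adjusted p up to 0.124) and with the block (0.0547).

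SLC25A46, an outer-membrane member that acts in mitochondrial shape and lipid transfer, had 108, 100.5 and 103 CPM with the NRF1 guide in SaABE, against 89.2, 94.1 and 94.8 CPM with the intergenic guide, and rose (0.16, edgeR adjusted p = 0.00138). SpABE libraries had 89.2, 89.4 and 86.0 CPM with the NRF1 guide, against 94.1, 91.3 and 90.3 CPM with the intergenic guide. SpCBE libraries had 100.1, 97.6 and 102 CPM with the NRF1 guide, against 107, 98.0 and 99.5 CPM with the intergenic guide. SLC25A46 passed in neither. The SaABE effect exceeded the SpABE effect by 0.22 (edgeR adjusted p = 0.00609) and the SpCBE effect by 0.18 (0.0403). The difference from SpCBE was lost without 12 of the 18 libraries (adjusted p up to 0.166) and with the block (0.0796).

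**Figure D5:**
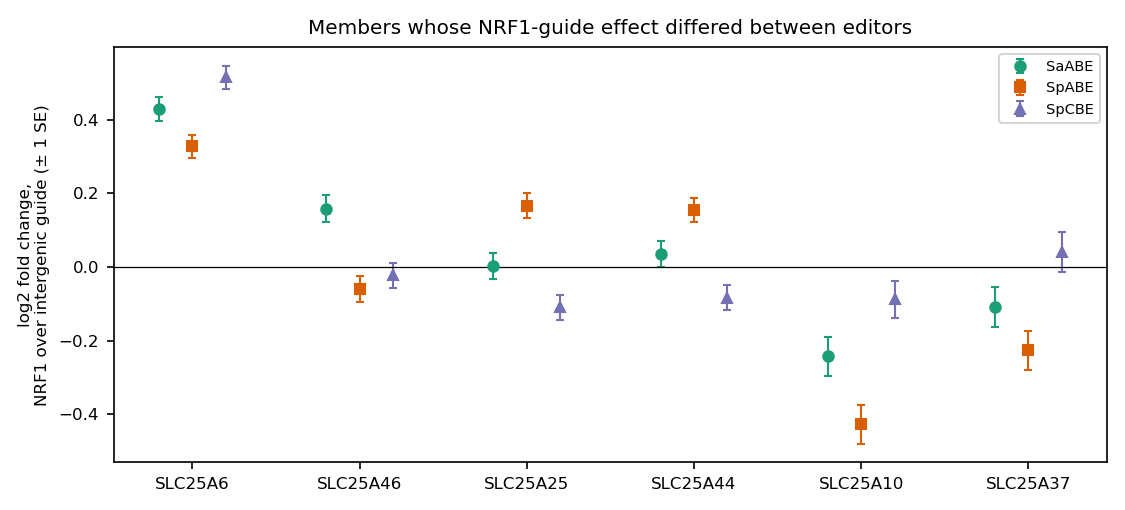
Log2 fold change (y axis, NRF1 guide over intergenic guide, bars ± 1 SE) of the 6 members whose effect differed between editors (x axis), in SaABE (circles), SpABE (squares) and SpCBE (triangles). SLC25A6 is over 0.3 in all 3, while SLC25A25 lies at 0.17 in SpABE and -0.11 in SpCBE.

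The intergenic controls themselves differed between editors, and editor and guide cannot be told apart in them. Of the 42 members 18 passed between SaABE and SpABE (42.9%, against 38.3% of all genes), 19 between SaABE and SpCBE (45.2%, against 40.6%) and 13 between SpABE and SpCBE (31.0%, against 35.5%). In each pair 1 was lower past the fold threshold. These were SLC25A27 at -0.63 for SaABE over SpABE (3.45% of all genes), SLC25A48 at -0.56 for SaABE over SpCBE (4.24%) and SLC25A45 at -0.51 for SpABE over SpCBE (3.53%), all at levels under 4 CPM. These 3 pairs share control libraries.

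Other mitochondrial transport genes were counted in the same way. Of 4 tested family members under other symbols 1 rose, where 20.6% of all genes rose. This was UCP2, an uncoupling protein relative, at 0.11 (SE 0.033, edgeR adjusted p = 0.0125), and UCP3, MTCH1 and MTCH2 did not pass. Of 17 other inner-membrane transporters 4 rose and 3 fell, near the 20.6% and 18.8% of all genes, among them the pyruvate carrier subunit MPC1 at 0.17 and the serine transporter SFXN1 at -0.16. Of 15 tested genes of the pathway that imports carriers into the inner membrane, 8 rose and 2 fell (20.6% and 18.8% of all genes). The rises with the smallest p were TOMM22, a receptor of the TOM complex, at 0.15, TOMM6 at 0.14, TOMM7 at 0.17 and TOMM70 at 0.10. The TIM22 complex subunit TIMM22 rose by 0.10, and the falls were its partner TIMM29 at -0.18 and TIMM8A at -0.14. Of 3 outer-membrane channels, through which carrier substrates reach the inner membrane, 1 fell, where 18.8% of all genes fell. This was VDAC3, with 80.6 ± 1.17 CPM with NRF1 guides, against 133 ± 4.20 CPM with intergenic guides (SD, n = 9 each). Its log2 fold change of -0.72 (SE 0.019, edgeR adjusted p = 2.99e-19) was larger in size than that of any SLC25 member and was past 0.5 in every editor. VDAC1 and VDAC2 had -0.01 and 0.04 and did not pass over all editors (edgeR adjusted p = 0.553 and 0.055).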

How the data were processed

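Per the labels, a kit for stranded mRNA libraries was used. The submitters' notes name Cutadapt 1.18, STAR 2.7.0f, DESeq2 1.46.0, hg38 and GENCODE 30. Which program counted the reads, with which strand setting and how it treated reads that match several genes, is not given in the sources used here, so overlapping genes and close paralogs are uncertain. The table the authors deposited holds estimated counts per gene, not normalized. Of its nonzero values 19.63% were not whole, so the tests, planned for whole counts, were run on rounded estimated counts. A gene of the family and a comparison gene are not reported here. Of 36 sample columns 18 were used and 18 were not used. For 45 genes of the pseudoautosomal regions the Y line, identical to the X line, was added to it.

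The group-wise filterByExpr filter kept 17729 genes. After TMM scaling, quasi-likelihood tests of edgeR 4.0.16 were run under R 4.3.3 with Benjamini-Hochberg adjustment over all genes. The pooled comparison used all 18 libraries and had terms for guide and editor (biological coefficient of variation 4.37%). Single-editor effects, their differences and the control comparisons came from a fit of 6 group means (3.1%). Passing means an adjusted p under 0.05, and the fold threshold was 0.5 on the log2 scale. The steps were tested on simulated data. Exact permutation tests used scipy 1.17.1. Exon lengths came from GENCODE 44, which held all 47 members described, and promoters from RefSeq (GRCh38.p14).

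The members, gene lists and tests were chosen with earlier results of these data known. Members described one by one were those past both thresholds, the 8 largest rises and the 7 falls that passed the pooled test, those whose effect differed between editors and the 6 highest per kilobase; the others are given to account for every member. Same-numbered SpABE libraries deviated together weakly (correlations 0.158, 0.113 and 0.125 over 8864 genes), a pairing seen in the data, not tested and not stated by the labels. The reported SpABE tests have no block, and the value with the block is given where it changes a call. Same-number correlations were -0.387, -0.345 and -0.069 in SaABE and 0.031, 0.042 and 0.102 in SpCBE. In SaABE, NRF1 replicate 1 deviated with intergenic replicate 2 (0.338) and NRF1 replicate 2 with intergenic replicate 1 (0.349). A block by number does not follow these SaABE pairs, and it enters the pooled fit with the block as well. Within groups, all library pairs differed beyond sampling noise. Alternatives were RLE scaling, DESeq2 1.42.0, other filters, a replicate block, no editor term, single libraries left out and, chosen after seeing the data, X and Y lines kept apart and canonical transcript lengths.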

Additional observations from a re-analysis of the deposited data

Results flagged for a closer look

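For 6 members the effect of the NRF1 guide differed between a pair of editors by the test of the difference itself, which gave 8 results. Editor and guide cannot be told apart in these results. Between SaABE and SpABE the log2 fold changes differed by -0.16 for SLC25A25 and by 0.22 for SLC25A46. Between SaABE and SpCBE they differed by 0.18 for SLC25A46. Between SpABE and SpCBE they differed by -0.19 for SLC25A6, -0.34 for SLC25A10, 0.28 for SLC25A25, -0.27 for SLC25A37 and 0.24 for SLC25A44. SLC25A25 was the member with a rise that passed in one editor and a fall that passed in another. Groups of 3 libraries are too small for a test of a library far from the others.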

How the results depend on the processing

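Over all 3 editors, 14 members rose and 7 fell. With the replicate block 12 rose and 5 fell, with RLE scaling 15 and 5, and with DESeq2 17 and 6. Without the editor term the counts moved to 7 and 3, where differences between editors add to the error. With no filter on low counts 1 member fell in SpCBE, in place of 3. Of the members described one by one, SLC25A3 in SaABE and SpABE, SLC25A5 and SLC25A45 in SaABE, SLC25A15 in SpABE, SLC25A25 and SLC25A29 in SpCBE, the pooled SLC25A37 call and the editor differences of SLC25A25 (SaABE and SpABE) and SLC25A37 no longer passed without that filter. With the replicate block 1 member, in place of 2, differed between the SaABE and SpABE effects and 0, in place of 1, between SaABE and SpCBE. Same-numbered libraries deviated together weakly in SpABE and less so in SpCBE, and in SaABE libraries of different numbers deviated together. These pairings were read from correlations and were not tested. The block therefore does not follow the SaABE pairs. It changed the pooled calls of SLC25A24, SLC25A28, SLC25A37 and SLC25A42. It also changed the editor calls of SLC25A3, SLC25A5, SLC25A15, SLC25A25, SLC25A32 and SLC25A45, and no other call of a guide effect. The shorter core raised the share of promoters with a match to 12.5%, against 9.02% of all genes. Leaving out 1 library gave 12 to 16 members higher and 5 to 7 lower over all editors, with 0 past the fold threshold. It gave 9 to 13 higher, 3 to 4 lower and 0 to 1 past the fold threshold in SaABE, 8 to 15, 4 to 6 and 0 to 1 in SpABE, and 8 to 10, 1 to 3 and 0 to 1 in SpCBE. The SpCBE falls came to 1 without NRF1 replicate 3, intergenic replicate 1 or intergenic replicate 3. The count for SaABE and SpCBE effects came to 3 without SaABE intergenic replicate 2. Differences between editors' effects numbered 1 to 3 for SaABE and SpABE, 0 to 3 for SaABE and SpCBE and 4 to 6 for SpABE and SpCBE, and between the controls 14 to 19, 14 to 20 and 11 to 15. The cause of these changes was not tested. Of the values for single members under all alternatives, 2167 kept direction and side of the threshold, 124 lost the call, 31 gained it, 5 levels per kilobase moved and none changed direction with a call. Members under 1 CPM are at the limit of this depth. For changes under 0.1 on the log2 scale, the spread between libraries, which exceeded sampling noise, also matters, in abundant members too.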
